A study of Rattus norvegicus with 4 samples.

Results

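The genes for fibroblast growth factors (FGFs), platelet-derived growth factors (PDGFs) and bone morphogenetic proteins (BMPs) and for their named receptors were compared between neonatal and adult carotid bodies (CBs) of the rat. They were chosen by symbol alone, as every entry named Fgf, Bmp, Fgfr or Bmpr with a number, the 4 Pdgf ligands, Pdgfra, Pdgfrb, Fgfrl1 and Bmper, which gave 48 of the 32883 genes listed. The CB lies where the carotid artery divides and senses arterial oxygen through its glomus cells, and the study compared the organ before and after its sensitivity to low oxygen matures. All rats were Sprague Dawley, carried no genetic change and received no treatment. Neonates were 5 days old and adults 21 days old, and 2 libraries represent each age. The series' design text gives CBs of 6 pups or of 3 adult rats pooled per library, while the methods of the study describe larger pools and one more replicate. Females and males were pooled, so neither a single animal nor a sex can be read from a library, and a p-value measures the spread between pools.

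FGFs are secreted signals, apart from the FGF homologous factors, which stay inside the cell. Secreted FGFs bind receptor tyrosine kinases together with heparan sulphate or a klotho protein, and the receptors signal through adaptors to the MAP kinase cascade. PDGFs are dimers that act on 2 receptor tyrosine kinases, of which PDGFRA marks fibroblast-like cells and PDGFRB marks pericytes and smooth muscle of vessels. BMPs bind pairs of type I and type II serine-threonine kinase receptors that phosphorylate SMAD1, SMAD5 and SMAD9, and BMPs near the dorsal aorta are known to start the sympathoadrenal programme from which chromaffin cells and sympathetic neurons arise.

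The 4 libraries held between 36286191 and 39476110 estimated counts, so that a floor of 3 counts equals 0.0760 to 0.0827 CPM (counts scaled to library size, TMM-normalised elsewhere in the text) and covers counting error only. Log2 fold changes are neonate over adult, so a negative value means a lower level in neonates, and each is given with its standard error (SE). Adjusted p-values come from edgeR's quasi-likelihood test over 13843 genes. A gene passed the test at an adjusted p under 0.05 and was called when it also differed by at least 2-fold. Glomus cell markers, tyrosine hydroxylase among them, were present in all 4 libraries and summed to between 6755 and 9098 CPM. Neonate 1 stood apart in parathyroid RNA, with 1773 CPM of Pth against 208.3 CPM in neonate 2 and 0 in both adult libraries. Pth was thus found in neonates only, and the part of parathyroid RNA in genes higher in neonates was not tested. Proliferation markers were higher in neonates in 8 of 8 genes and summed to 654.4 and 565.9 CPM in neonates and to 142.6 and 145.1 CPM in adults.

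Of the 48 genes, 33 were abundant enough to be tested, 7 had counts but were too low, and 8 had no count in any library. BMP ligands and receptors made up most of the genes that were lower in neonates. In the direction of higher levels in neonates, 2 of the 33 were called (6.06%) against 7.68% of all genes tested, namely Fgf13 and Fgf21. In the opposite direction 7 were called (21.2%) against 13.2% of all genes, namely Bmp15, Fgf7, Bmpr1a, Bmp6, Bmp8b, Bmp7 and Bmp3. Without a minimum fold, 7 members passed as higher in neonates (21.2%) against 31.2% of all genes, and 15 passed as lower (45.5%) against 31.1% of all genes. The remaining 11 did not pass. With library size alone in place of TMM, 1 member was called higher and 10 were called lower. The levels of the ages did not overlap in 27 of the 33 members (81.8%), and the same held for 83.0% of all genes tested. The median log2 fold change was −0.36 over the 33 members and −0.0029 over all genes. These counts are descriptions, because 3 of the tested members reached 1 CPM, before TMM scaling, in libraries of 1 age only: Bmp8b and Fgf16 in adults and Fgf21 in neonates.

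**Figure D1:**
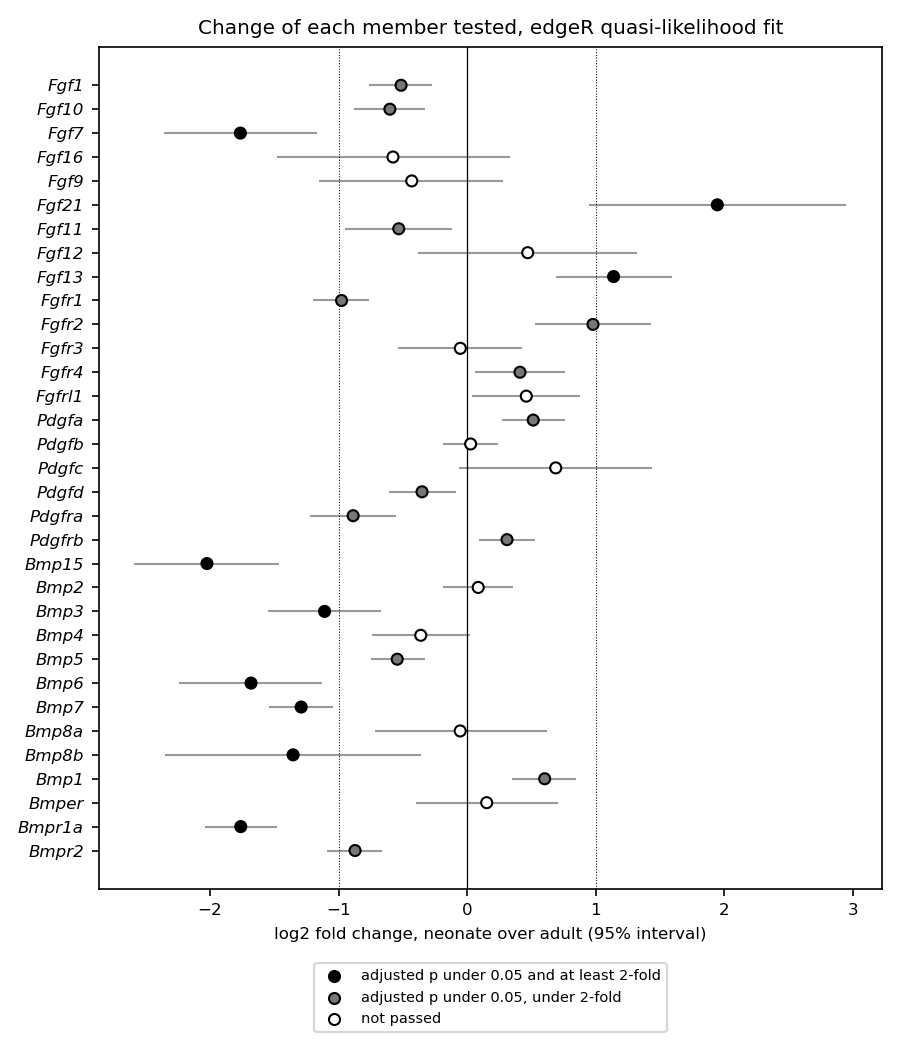
Log2 fold change of each tested member, neonate over adult, grouped by family, with its 95% interval from edgeR's fit. The BMP ligands and receptors lie mostly left of 0, from −2.02 for Bmp15 to 0.09 for Bmp2, whereas FGF and PDGF members lie on both sides.

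The promoters of 4 called members are shown because they include the BMP receptor with the lowest adjusted p of all members, a BMP ligand and the secreted FGFs called in each direction. Each is the 300-base window around the annotated start of the gene that RefSeq gives on assembly GRCr8, whereas the reads had been mapped to the earlier Rnor_6.0. Capitals mark GGGCGG (the GC box), GGCGCC (a palindrome bound by the BMP SMADs) and TATAAA (the TATA box), read on either strand, and matches of different motifs were allowed to overlap. The window of Bmpr1a is chr16:9786812-9787111 on the minus strand, that of Bmp6 is chr17:26675212-26675511 on the minus strand, that of Fgf7 is chr3:133735377-133735676 on the plus strand and that of Fgf21 is chr1:105221327-105221626 on the minus strand.
Bmpr1a: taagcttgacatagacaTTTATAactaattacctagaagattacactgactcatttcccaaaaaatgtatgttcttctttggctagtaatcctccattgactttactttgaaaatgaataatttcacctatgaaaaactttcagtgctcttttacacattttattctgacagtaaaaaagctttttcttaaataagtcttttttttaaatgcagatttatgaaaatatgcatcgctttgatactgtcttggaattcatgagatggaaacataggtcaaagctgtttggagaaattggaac
Bmp6: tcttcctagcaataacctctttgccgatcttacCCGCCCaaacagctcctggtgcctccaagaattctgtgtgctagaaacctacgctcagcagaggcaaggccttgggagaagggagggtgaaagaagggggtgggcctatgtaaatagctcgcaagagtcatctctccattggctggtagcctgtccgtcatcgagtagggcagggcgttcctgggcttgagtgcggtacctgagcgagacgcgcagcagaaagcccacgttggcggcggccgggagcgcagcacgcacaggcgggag
Fgf7: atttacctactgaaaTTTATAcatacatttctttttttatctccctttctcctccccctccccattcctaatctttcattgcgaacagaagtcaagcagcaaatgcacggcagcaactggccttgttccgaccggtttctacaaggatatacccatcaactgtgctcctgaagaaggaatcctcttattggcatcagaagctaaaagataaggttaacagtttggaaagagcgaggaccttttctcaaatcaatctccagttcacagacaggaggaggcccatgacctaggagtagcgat
Fgf21: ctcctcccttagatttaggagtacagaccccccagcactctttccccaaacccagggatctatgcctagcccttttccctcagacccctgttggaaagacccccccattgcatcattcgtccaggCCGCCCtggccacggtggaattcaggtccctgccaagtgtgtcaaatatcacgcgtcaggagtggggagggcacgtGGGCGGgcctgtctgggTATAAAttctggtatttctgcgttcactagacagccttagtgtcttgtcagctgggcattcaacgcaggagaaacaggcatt
The 4 windows differ widely in composition. That of Bmpr1a holds 30.0% G and C, 1 CpG and a TATAAA on the opposite strand, whereas that of Bmp6 holds 59.3% G and C, 18 CpGs and a GGGCGG on the opposite strand. The window of Fgf7 holds 43.7% G and C with a TATAAA on the opposite strand. That of Fgf21 holds 55.3% G and C, 2 GGGCGG and 1 TATAAA, and the TATAAA reads in the direction of the gene. None of the 4 windows holds GGCGCC. Promoters were found for 38 of the 48 members. Of these, 23 hold GGGCGG, against 34.9% of all 27457 promoters in the table, and 8 hold GGCGCC, against 11.8%. TATAAA occurs in 5 of the 38, against 14.3% of all promoters, and ACGTG, the core of the hypoxia response element, in 10 of the 38, against 19.7%. The median G and C content is 59.1% over the 38 members and 52.3% over all promoters. A match is only a string of letters in the window and was not tested for binding.

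Among the receptors named for BMPs, the type I receptor Bmpr1a and the type II receptor Bmpr2 were both lower in neonates. Bmpr1a (ENSRNOG00000052469), a type I kinase receptor that BMP2 and BMP4 use, was measured at 14.0 and 16.1 CPM in the neonatal libraries and at 46.5 and 55.7 CPM in the adult libraries. The ages were far apart, with a log2 fold change of −1.76 (SE 0.12) or 3.39-fold more in adults and an adjusted p of 8.54e-06. Bmpr2 (ENSRNOG00000022196), the type II receptor that pairs with it, was at 23.9 and 22.2 CPM in neonates and at 41.5 and 42.8 CPM in adults. Bmpr2 did not overlap between ages either, and its log2 fold change was −0.87 (SE 0.10, adjusted p 7.46e-05), or 1.83-fold. It shares its span with another gene annotated as protein-coding. The other type I receptor among the members, Bmpr1b, had 11 and 2 counts in neonates and 18 and 38 counts in adults and was too low to be tested. In tissue of mixed cells such as the CB, fewer cells of a type and less RNA per cell cannot be told apart for any of these genes.

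The BMP ligands gave 6 members that passed as lower in neonates, 0 that passed as higher and 3 that did not pass, of 9 tested, with a median log2 fold change of −1.11. Bmp7 (ENSRNOG00000053384), a widely expressed ligand known for kidney and eye development, was at 21.3 and 19.8 CPM in neonates and at 54.3 and 46.1 CPM in adults. Adults therefore had 2.45-fold more without overlap, and the log2 fold change was −1.29 (SE 0.11, adjusted p 2.24e-05). Bmp6 (ENSRNOG00000013717), the close relative of BMP7 that endothelial cells use to control iron balance in the liver, was at 2.25 and 2.56 CPM in neonates and at 7.24 and 8.22 CPM in adults. Its log2 fold change was −1.68 (SE 0.25, adjusted p 0.000370), or 3.21-fold. Bmp5, the remaining ligand of that subgroup with a high count, was lower in neonates by less, at 59.2 and 64.9 CPM against 85.6 and 95.3 CPM in adults, with a log2 fold change of −0.54 (SE 0.09, adjusted p 0.000915). Thus Bmp5, Bmp6 and Bmp7, whose proteins are alike in sequence, were each lower in both neonatal libraries than in both adult libraries. Such a separation, in either direction, was seen in 83.0% of all genes tested and is not particular to them.

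Bmp3 (ENSRNOG00000002381), which acts against other BMPs in bone, was at 5.60 and 5.73 CPM in neonates and at 13.5 and 11.0 CPM in adults, without overlap. Its log2 fold change was −1.11 (SE 0.19, adjusted p 0.00104), and without adult 1 it passed at under 2-fold. Bmp15 (ENSRNOG00000002984) is known as a factor that oocytes secrete, and in the CB libraries it was at 1.97 and 2.0 CPM in neonates and at 8.88 and 7.31 CPM in adults. It had the largest fold of the 33 members, 4.07-fold more in adults (log2 fold change −2.02, SE 0.25, adjusted p 0.000151). The Bmp15 entry overlaps no other gene in the RefSeq annotation of GRCr8.

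Bmp8b (ENSRNOG00000033209), a ligand known from germ cells and brown fat, was low throughout, at 0.394 and 0.585 CPM in neonates and at 1.13 and 1.39 CPM in adults. It passed with a log2 fold change of −1.35 (SE 0.44, adjusted p 0.0237), but its near copy Bmp8a did not, at −0.05 (SE 0.30, adjusted p 0.883). Estimated counts of Bmp8a and Bmp8b are fractional because reads that fit both were divided between them, so the split is uncertain. The summed counts of Bmp8a and Bmp8b were whole, at 116 and 124 in neonates and 184 and 157 in adults. Fgfr2 and Pdgfa also had fractional estimated counts, so the assignment of their reads is not certain either. Bmp8b no longer passed without neonate 1 (adjusted p 0.0731), without adult 1 (0.0752) or without adult 2 (0.158), nor in DESeq2 (0.0776) or when low genes were kept (0.0544).

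The ligands best known from heart, limb and vessel development, Bmp2 and Bmp4, did not pass. Bmp2 was at 37.1 and 46.1 CPM in neonates and at 41.3 and 37.0 CPM in adults, and its interval ran from −0.19 to 0.36 on the log2 scale. Bmp4 was at 11.2 and 10.7 CPM in neonates and at 12.3 and 15.8 CPM in adults, with a log2 fold change of −0.36 and an interval from −0.74 to 0.02. Bmp4 passed as lower with library size alone (adjusted p 0.0123). Bmp10, a ligand of the heart, had no count in any library. The intervals of Bmp2 and Bmp4 leave room for small differences but not for one of the size seen for Bmp7.

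The 2 remaining genes with BMP in their name are no BMP ligands. Bmp1 (ENSRNOG00000010890) encodes a secreted metalloprotease that trims procollagens and cleaves the BMP antagonist chordin. It ran against the ligands, at 318.1 and 317.6 CPM in neonates and at 185.4 and 233.3 CPM in adults, with a log2 fold change of 0.60 (SE 0.11, adjusted p 0.00132). Bmper, which binds BMPs outside the cell, was at 5.69 and 5.40 CPM in neonates and at 5.67 and 4.31 CPM in adults and did not pass (adjusted p 0.606).

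**Figure D2:**
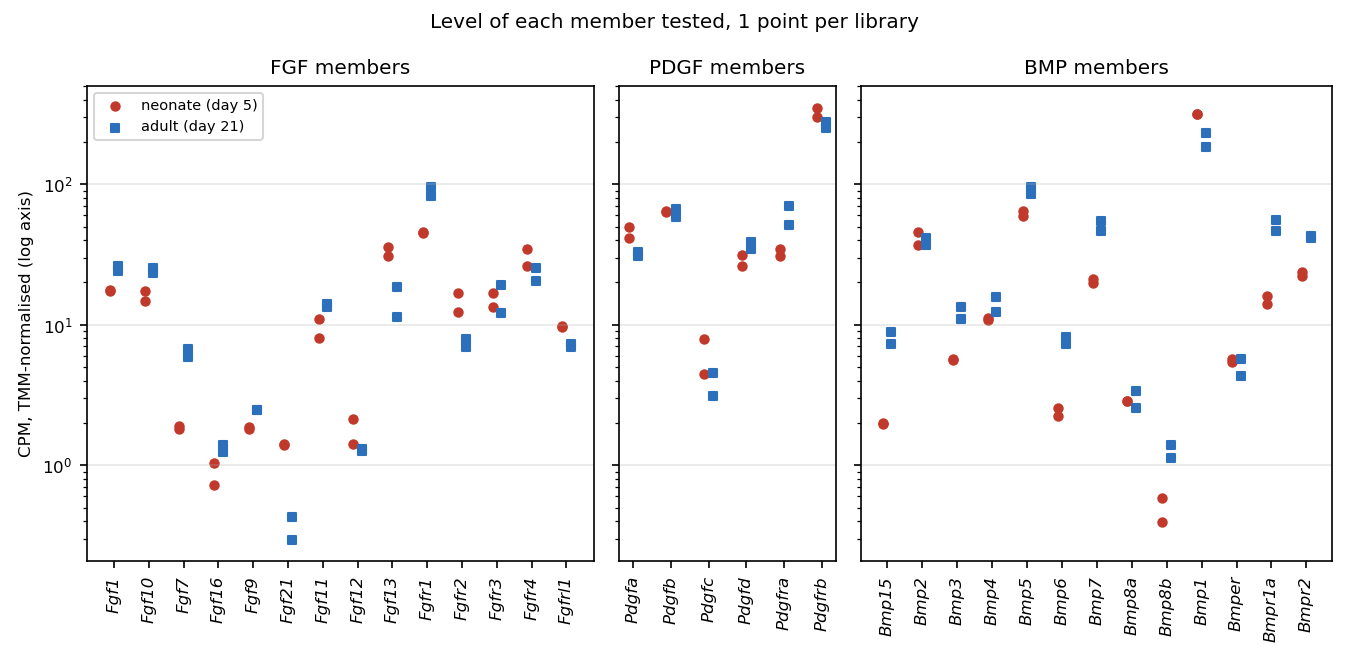
Level of each tested member in each library, in TMM-normalised CPM on a log axis, with neonates and adults in different colours. Bmpr1a, Bmp15, Fgf7 and Bmp6 show the widest gaps with adults on the higher side, and Fgf21 and Fgf13 show gaps with neonates on the higher side.

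Genes around the BMP pathway were read from lists. Of all genes tested, 31.1% passed as lower in neonates and 31.2% as higher. Of 13 BMP antagonists tested, 7 passed as lower in neonates and 2 as higher, with a median log2 fold change of −0.59. The 2 antagonists that were called were both lower in neonates: Chrdl1 (log2 fold change −1.86, SE 0.18, adjusted p 4.62e-05) and Grem1 (−1.2, SE 0.43, adjusted p 0.0354). Grem1 had 38 and 19 counts in neonates and 77 and 71 counts in adults. It reached 1 CPM, before TMM scaling, in adults only, so its call is a description. Antagonists such as Chrdl1 and Grem1 bind BMPs and keep them from their receptors. The 2 on the list that passed as higher were Fst (0.57) and Bambi (0.81), which is a decoy receptor. Between 5 and 7 of the 13 passed as lower over the alternatives, 5 of them without adult 2, and Smoc2 (adjusted p 0.0475) is among the 7. Of 9 receptors and co-receptors of BMPs, activins or related ligands, 4 passed as lower and 1 as higher, with a median of −0.48. None was at 2-fold. Those lower were Acvr1b, Acvr2a, Tgfbr3 and Rgmb, and more passed as lower without neonate 2. Acvrl1 passed as higher (0.38, adjusted p 0.0025), and Acvr1 did not pass (−0.13, adjusted p 0.349). Of 8 BMP SMADs and their regulators, 3 passed as lower and 0 as higher (median −0.25), which were the common partner Smad4 (−0.83), the receptor SMAD Smad9 (−0.77) and the ubiquitin ligase Smurf2 (−0.35). Of 11 genes known to respond to BMPs, 1 passed as lower, 2 as higher and 8 did not pass, with a median of −0.05. The single gene that passed as lower, Atoh8, did not pass without adult 1 or without adult 2, and without neonate 2 or in limma-voom there were 2 genes. Library size alone, which shifts all genes downwards in neonates, raised the number passing as lower. It became 8 of the listed receptors and co-receptors, 7 of the SMADs and 7 of the response genes, with 0, 0 and 2 passing as higher. Smad6 and Smad7 are on both the list of SMADs and that of response genes, so these counts are not separate. In the main fit, with TMM scaling, Id1, Id2 and Id3, the classical BMP targets, did not pass. Their intervals were −0.29 to 0.16 for Id1, −0.27 to 0.17 for Id2 and −0.16 to 0.19 for Id3. Each interval spans 0 and stays far from a 2-fold difference, but holds for TMM scaling only. Id4 (0.59) and the decoy receptor Bambi (0.81), which is also on the list of antagonists, passed as higher in neonates.

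**Figure D3:**
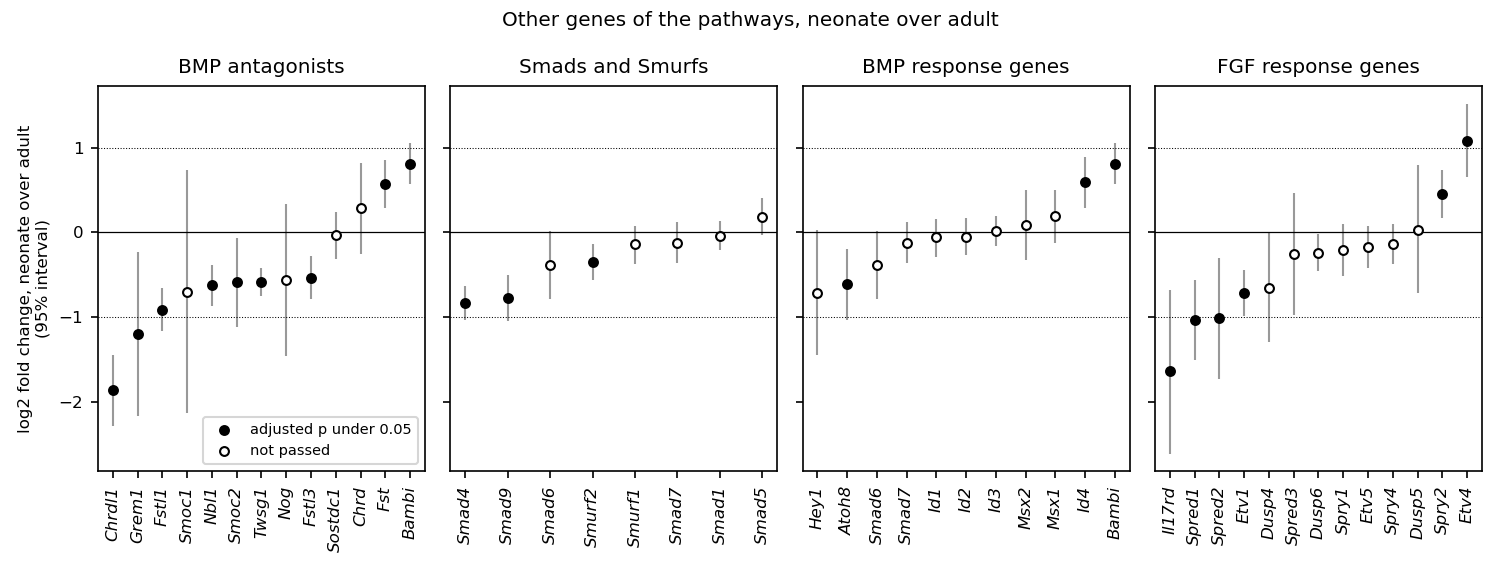
Log2 fold change, neonate over adult, of each tested gene on 4 pathway lists, with its 95% interval as a line. Filled points passed the test, open points did not, and dotted lines mark 2-fold. The BMP antagonists reach down to −1.86 for Chrdl1, whereas Id1, Id2 and Id3 lie near 0.

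FGF receptors moved in both directions. Fgfr1 (ENSRNOG00000016050), the receptor with the broadest expression in mesenchymal and neural cells, was at 45.6 and 44.9 CPM in neonates and at 82.4 and 95.8 CPM in adults. The ages did not overlap and adults had 1.97-fold more (log2 fold change −0.98, SE 0.10, adjusted p 4.87e-05). Fgfr2 (ENSRNOG00000016374), whose splice forms answer to FGF7 and FGF10 in epithelia, went the other way, at 17.0 and 12.4 CPM in neonates and at 6.92 and 7.96 CPM in adults. Its log2 fold change was 0.98 (SE 0.20, adjusted p 0.00232), so Fgfr1 and Fgfr2 differed in opposite directions, each by just under 2-fold. Their log2 fold changes were −1.22 and 0.73 with library size alone. Fgfr1 reached 2-fold there, without adult 1 and under both other filters on low counts, and Fgfr2 reached it without neonate 2 or without adult 2. Fgfr4 (ENSRNOG00000016763), known from liver and muscle, was at 26.0 and 34.7 CPM in neonates and at 25.3 and 20.4 CPM in adults and passed narrowly (log2 fold change 0.41, SE 0.16, adjusted p 0.0433). The lower neonatal library of Fgfr4 lay close to the higher adult library. Fgfr4 no longer passed with library size alone as the scaling (adjusted p 0.388), without neonate 2 (0.296) or without adult 2 (0.219), nor when low genes were kept (0.0730) or a mean of 5 CPM was required (0.0640). Fgfr3, known from cartilage and brain, was at 13.4 and 16.7 CPM in neonates and at 12.1 and 19.1 CPM in adults, overlapping fully (adjusted p 0.840). Fgfrl1, a receptor without a kinase, was at 9.80 and 9.69 CPM in neonates and at 7.26 and 6.90 CPM in adults, and missed the threshold (log2 fold change 0.46, SE 0.18, adjusted p 0.0546), although it passed in limma-voom (0.0389).

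Ratios between counts within a library need no scaling between libraries. They were chosen after the values were seen and were not corrected for gene length. Fgfr1 to Fgfr2 stood at 2.69 and 3.63 in neonates and at 11.9 and 12.0 in adults. Pdgfra to Pdgfrb stood at 0.102 and 0.0987 in neonates and at 0.203 and 0.254 in adults. Bmpr1a to Bmpr2 stood at 0.587 and 0.726 in neonates and at 1.12 and 1.30 in adults. None of these 3 receptor ratios overlapped between ages, and each was higher in adults. The genes of Fgfr1 to Fgfr2 and of Pdgfra to Pdgfrb each differed without overlap and in opposite directions. Their ratios therefore could not overlap and add no support. The share of all gene pairs that separate in this way was not computed. With 2 libraries against 2, an exact permutation test of a ratio cannot give a two-sided p under 0.333, so none was used.

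**Figure D4:**
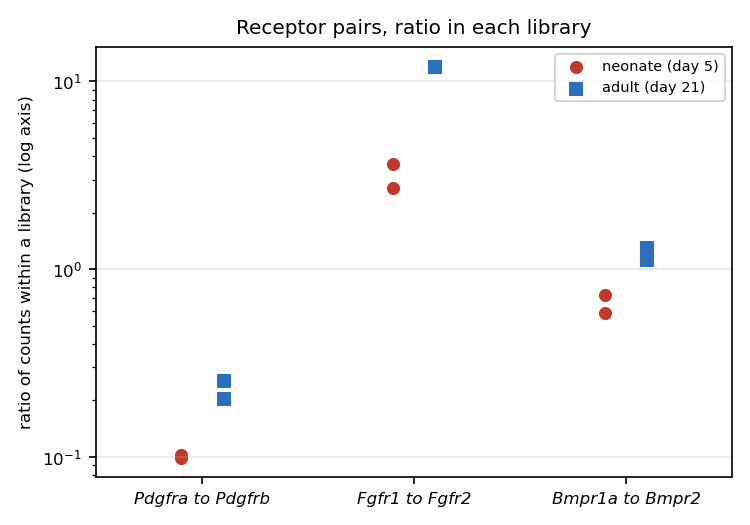
Ratio of estimated counts of 3 pairs of receptors within each library on a log axis, with 1 point for each library, neonates as circles and adults as squares. Each pair is lower in both neonatal libraries than in both adult libraries, for example 2.69 and 3.63 against 11.9 and 12.0 for Fgfr1 to Fgfr2.

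Of the secreted FGFs, Fgf7, Fgf10 and Fgf1 were lower in neonates. Fgf7 (ENSRNOG00000009425), the keratinocyte growth factor that mesenchyme makes and that acts on the epithelial form of FGFR2, was at 1.89 and 1.81 CPM in neonates and at 5.87 and 6.70 CPM in adults. Adults had 3.4-fold more without overlap (log2 fold change −1.76, SE 0.26, adjusted p 0.000422). Fgf10 (ENSRNOG00000012278), of the same subfamily, was lower in neonates by less, at 14.9 and 17.3 CPM against 23.5 and 25.3 CPM (log2 fold change −0.60, SE 0.12, adjusted p 0.00238). Fgf1, which binds every FGF receptor, was at 17.7 and 17.5 CPM against 26.0 and 24.3 CPM in adults (log2 fold change −0.51, SE 0.11, adjusted p 0.00281). These 3 ligands were lower in both neonatal libraries than in both adult libraries, while the ages separated in 83.0% of all genes tested. Fgf7 and Fgf1 each share their span with another gene, Fam227b and Arhgap26, and whether counting used strand is not stated.

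Fgf21 (ENSRNOG00000020990) was the secreted FGF called as higher in neonates. It is an endocrine FGF that liver releases in fasting and that needs beta-klotho to signal. It was at 1.41 and 1.39 CPM in neonates and at 0.295 and 0.428 CPM in adults, so that the ages did not overlap at a low level. Its log2 fold change was 1.95 (SE 0.44, adjusted p 0.00437), or 3.85-fold, and without adult 1 it no longer passed (adjusted p 0.0553). The FGF9 subfamily ligands were low and did not pass. Fgf9 was at 1.86 and 1.81 CPM in neonates against 2.48 and 2.47 CPM in adults (adjusted p 0.260), and Fgf16 was at 1.04 and 0.724 CPM against 1.25 and 1.39 CPM (adjusted p 0.234).

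Intracellular FGF homologous factors, which bind voltage-gated sodium channels instead of FGF receptors, differed among themselves. Fgf13 (ENSRNOG00000042753) was the most clearly neonatal member, at 35.5 and 30.7 CPM in neonates and at 18.7 and 11.4 CPM in adults. Its log2 fold change was 1.14 (SE 0.20, adjusted p 0.00110), 2.20-fold, and the ages did not overlap although the adult libraries differed from each other. Fgf13, which also shares its span with another annotated gene, passed at under 2-fold without adult 2 or with library size alone. Fgf11 went the other way, at 8.08 and 11.0 CPM in neonates against 14.1 and 13.5 CPM in adults (log2 fold change −0.53, SE 0.18, adjusted p 0.0301), but it did not pass without neonate 1 (0.122), adult 1 (0.130) or adult 2 (0.0883). Fgf12 did not pass, at 1.41 and 2.14 CPM in neonates against 1.30 and 1.26 CPM in adults (adjusted p 0.297). Fgf14 had 2 counts in each neonatal library and 15 and 1 counts in the adult libraries and was not tested.

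Further FGF ligands were too low to be tested or had no counts. Fgf2, the founding member with FGF1, had 4 and 2 counts in neonates and 16 and 17 counts in adults, and in the fit without a filter its adjusted p was 0.102. Fgf5, known as a stop signal for hair growth, had 7 and 0 counts in neonates and 12 and 30 counts in adults (adjusted p 0.157 in that fit). Fgf18 had 9 and 0 counts against 7 and 9 counts, Fgf17 had 3 and 0 counts against 1 and 6 counts, and Fgf22 had 0 counts in neonates against 2 in each adult library. No difference was detectable at this depth for these 5 ligands. Fgf3, Fgf4, Fgf6, Fgf8, Fgf19, Fgf20 and Fgf23 were listed at 0 in all 4 libraries.

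The genes around the FGF receptors were also read from lists, beside 31.1% of all genes tested that passed as lower and 31.2% as higher. Of 15 FGF co-receptors and binding proteins tested, 4 passed as higher in neonates and 7 as lower, with a median log2 fold change of −0.30. The 4 called were Flrt1 (−2.21, SE 0.26, adjusted p 0.000107), an FGF receptor partner at the membrane, Gpc2 (2.18, SE 0.21, adjusted p 4.02e-05), a glypican of developing neurons, Kl (−2.12, SE 0.17, adjusted p 1.47e-05), the co-receptor of FGF23, and Gpc6 (−1.5, SE 0.39, adjusted p 0.00860), another glypican. Kl, which FGF23 needs, was thus 4.34-fold higher in adults while Fgf23 itself was listed at 0. Of 10 signal adaptors, 2 passed as higher and 5 as lower (median −0.15), and the ubiquitin ligase Cbl was the single gene called (−1.03, SE 0.39, adjusted p 0.0418). Without neonate 1, adult 1 or adult 2, 3 adaptors passed as lower. Of 13 FGF response and feedback genes, 2 passed as higher, 4 as lower and 7 did not pass (median −0.24). The 4 called were the feedback inhibitors Il17rd (−1.64, adjusted p 0.00848), Spred1 (−1.03, adjusted p 0.00240) and Spred2 (−1.01, adjusted p 0.0201), which were lower in neonates, and the transcription factor Etv4 (1.08, adjusted p 0.00119), which was higher. Il17rd had 25 and 23 counts in neonates and 62 and 107 counts in adults. It reached 1 CPM, before TMM scaling, in adults only, so its call is a description. The list had called members in both directions, while 7.68% of all genes tested were called higher and 13.2% lower. With library size alone, 9 of its genes passed as lower and 1 as higher, and without adult 2 it was 2 as lower and 1 as higher (1 as higher also without neonate 2).

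The PDGF receptors went in opposite directions. Pdgfra (ENSRNOG00000002244), the receptor for PDGF-A and PDGF-C, was at 30.9 and 34.7 CPM in neonates and at 51.0 and 70.3 CPM in adults. The ages did not overlap and adults had 1.85-fold more (log2 fold change −0.89, SE 0.15, adjusted p 0.000788). Pdgfrb (ENSRNOG00000018461), the receptor for PDGF-B and PDGF-D that vessel-wall cells need, was at 303.2 and 351.1 CPM in neonates and at 251.5 and 276.3 CPM in adults. The groups did not overlap, and the log2 fold change was 0.31 (SE 0.10, adjusted p 0.0211). Pdgfrb no longer passed with library size alone (adjusted p 0.621), without neonate 2 (0.129) or without adult 1 (0.0973).

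Among the PDGF ligands, Pdgfa passed as higher in neonates and Pdgfd as lower. Pdgfa, a ligand of PDGFRA, was at 41.7 and 49.6 CPM in neonates against 32.9 and 31.1 CPM in adults (log2 fold change 0.51, SE 0.11, adjusted p 0.00285), so ligand and receptor went in opposite directions. With library size alone its adjusted p was 0.0690. Pdgfd, a ligand of PDGFRB that must be cut by proteases to act, was at 31.2 and 26.1 CPM against 34.5 and 38.7 CPM (log2 fold change −0.35, SE 0.12, adjusted p 0.0252), and did not pass without neonate 2 (0.139) or adult 2 (0.144). Pdgfb, the endothelial ligand that recruits pericytes, was at 63.3 and 64.1 CPM in neonates against 66.7 and 58.3 CPM in adults, and its interval ran from −0.19 to 0.24 on the log2 scale. Pdgfc was at 7.91 and 4.43 CPM in neonates against 3.09 and 4.56 CPM in adults and did not pass (log2 fold change 0.69, SE 0.33, adjusted p 0.0990). Its value rested on neonate 1, the library with 1773 CPM of Pth: without neonate 1 it was 0.21 (adjusted p 0.570) and without neonate 2 it was 1.06 (adjusted p 0.00596). The part of parathyroid RNA in this was not tested. Over all genes tested, 31.1% passed as lower in neonates and 31.2% as higher. Of 7 proteases and binding proteins that process or hold PDGFs, 6 passed as lower in neonates and 1 as higher, with a median of −0.52 and none at 2-fold, and the 1 that was higher, St14, did not pass with library size alone or without adult 2.

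Markers of cell types moved beside these genes, and their part in the values above was not tested. Over all genes tested, 31.1% passed as lower in neonates and 31.2% as higher. Mural cell markers passed as lower in neonates in 8 of 10 genes and as higher in 1, with sums of 1231 and 1250 CPM in neonates and 2165 and 2311 CPM in adults, while the mural receptor Pdgfrb was higher in neonates. Mesenchymal markers passed as lower in 6 of 9 genes and as higher in 0, with sums of 13310 and 15890 CPM against 17260 and 19150 CPM, and Pdgfra is itself on that list. Endothelial markers passed as lower in 4 of 9 genes and as higher in 2, with sums of 1294 and 1311 CPM against 1321 and 1337 CPM. Glial markers passed as higher in 3 and as lower in 3 of 9 genes, with sums of 1196 and 2081 CPM against 1888 and 2023 CPM. Glomus cell markers passed as higher in 5 and as lower in 3 of 12 genes, with overlapping sums of 8068 and 6755 CPM against 9098 and 7132 CPM. Adipocyte markers passed as lower in 3 of 5 genes and as higher in 1, with overlapping sums of 150.2 and 192.8 CPM against 126.8 and 170.7 CPM. Most of each sum was Fabp4, which passed as higher, at 133.6 and 178.4 CPM against 94.1 and 125.3 CPM. Adipoq, Plin1 and Cidec passed as lower, with 5.68-fold, 4.93-fold and 3.88-fold more in adults, and Cfd did not pass. Lep was too low to be tested, with 0 counts in both neonatal libraries and 20 and 25 counts in adults. Skeletal muscle markers passed as lower in 2 of 5 genes and as higher in 0, with sums of 33.2 and 40.2 CPM against 64.2 and 72.9 CPM. The 2 genes were Myh3 and Des, and Des is also on the mural list. Acta1 (log2 fold change 0.67), Mylpf (0.54) and Tnnt3 (−0.27) did not pass. None of the markers found was at 0 in all 4 libraries, and Pecam1, Col1a2, Foxd3, Myh1 and Myh2 were not analysed here.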

How the data were processed

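RNA of pooled CBs was sequenced after poly A+ selection (100 bp paired-end), 2 libraries at each age. The authors trimmed the reads, aligned them with STAR 2.6.1d to Rnor_6.0.102 and ran Salmon, and the deposited values are estimated counts summed to genes, neither normalised nor filtered. The strand setting is not given in the sources used here.

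Estimated counts were rounded and fitted in R 4.3.3 with edgeR 4.0.16. Following the study's kinds of filter, genes annotated as non-coding were dropped, but only 636 could be matched by symbol, and the 13665 genes without a matched annotation were kept, so this step removed fewer genes than the study's. Genes that did not reach 1 CPM in 2 or more libraries were dropped. The ages were compared after TMM normalisation by the quasi-likelihood test without covariates, with Benjamini-Hochberg adjustment over all 13843 genes. Intervals are 95% intervals of that fit. Totals of 36286191 to 39476110 per library set the floor of 3 counts. The members and gene lists were chosen with earlier results of these data known, so list counts are descriptions and no set test was made. Every tested member is named, with the value in every library for called members and receptors, and of each pathway list at most 4 genes called at 2-fold. Other pathway genes, single marker genes and Pth were named after their values were seen. The 14 alternatives were other tools (DESeq2 1.42.0, limma-voom 3.58.1), scalings, filters, a replicate block and each library left out. Transcript lengths were not used here, so levels were not compared between genes. Some genes are not reported here and were left out of the list counts.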

Additional observations from a re-analysis of the deposited data

How the results depend on the processing

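Of the 22 members that passed, 15 passed in the same direction under each of the 14 alternatives that tested them, and Fgf11, Fgf21, Fgfr4, Pdgfa, Pdgfd, Pdgfrb and Bmp8b did not pass under at least 1. Main counts were 2 members called higher in neonates, 7 called lower, 7 passing higher and 15 passing lower. With library size alone, 1 was called higher (Fgf21) and 4 passed higher, since this scaling moved the median of all genes from −0.003 to −0.248 and the share of calls that are higher from 36.8% to 21.6%. With a mean of at least 5 CPM, 25 members were tested and 1 was called higher, because Fgf21 was no longer tested. Leaving out 1 library each gave 1 to 4 called higher, 6 to 7 called lower, 5 to 7 passing higher and 12 to 14 passing lower. Without neonate 2, Fgfr2 and Pdgfc joined the calls, and without adult 1, Fgf21 left them. Fgfrl1 also passed when mitochondrial and ribosomal protein genes were kept out of the TMM factors (adjusted p 0.0495) and with only annotated protein-coding genes (0.0459). Direction reversed only in members that did not pass. With library size alone the log2 fold changes were −0.0924 for Bmper, −0.217 for Pdgfb and −0.156 for Bmp2, and with a mean of at least 5 CPM it was −0.0089 for Pdgfb. Over libraries left out, values ran from −0.345 to 0.311 for Fgfr3, −0.071 to 0.236 for Bmp2, −0.239 to 0.159 for Bmp8a, −0.0321 to 0.363 for Bmper and −0.0662 to 0.127 for Pdgfb.

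With a replicate block, counts were 2 called higher, 7 called lower, 7 passing higher and 15 passing lower, so it changed no count of members, while 2 BMP response genes passed as lower. Samples of the same number share only that number in the labels (correlation of their deviations 0.0825 over 2 pairs). Depth limits genes near 3 counts, such as Fgf17 and Fgf22. The pools give 2 values per age.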

Other observations

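Several members lie in the span of another gene in the RefSeq annotation of GRCr8, and without a stated strand the reads of such genes may not be separable. Fgf7 overlaps Fam227b, which had a log2 fold change of 0.83 (edgeR's adjusted p 0.0503), the opposite direction to Fgf7. Fgf2 overlaps Nudt6, a gene on the other strand known as its antisense partner, which was higher in neonates with a log2 fold change of 0.97 (edgeR's adjusted p 0.00777) while Fgf2 itself had 4 and 2 counts in neonates and 16 and 17 counts in adults. Fgf1 overlaps Arhgap26, which was lower in neonates like Fgf1, with a log2 fold change of −1.60 (edgeR's adjusted p 0.000954). Bmp8b overlaps Ppie, which was higher in neonates (0.66, edgeR's adjusted p 0.000566). Fgf13, Bmpr2, Pdgfd, Bmp8a, Fgf14 and Fgf17 also share their span with another gene annotated as protein-coding.

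Ratios between a ligand and its receptor or between ligands, chosen after the values were seen, also separated the ages. Pdgfa to Pdgfra counts stood at 1.35 and 1.43 in neonates and at 0.645 and 0.443 in adults. Both genes differed without overlap and in opposite directions, so this ratio could not overlap. Bmp7 to Bmp2 stood at 0.574 and 0.430 in neonates and at 1.31 and 1.25 in adults, and Fgf7 to Fgf10 at 0.127 and 0.105 against 0.249 and 0.265. Pdgfd to Pdgfb did not overlap either but lay closer, at 0.493 and 0.407 in neonates and 0.517 and 0.663 in adults.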
